A study of Mus musculus with 8 samples.

Results

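The genes described here encode splicing factors and heterogeneous nuclear ribonucleoproteins (hnRNPs). They were taken by symbol from the annotation of the array: the SR proteins (Srsf genes), the hnRNPs (Hnrnp genes), the SF3A and SF3B subunits, the small nuclear ribonucleoprotein (snRNP) proteins (Snrp genes) and the U2AF genes. In all, 44 of the 8251 genes with a probe set of their own met this rule, with 61 of 12488 probe sets, and a further 7 probe sets shared with other genes were left out. SR proteins gave 16 probe sets, hnRNPs 22, SF3 subunits 10, snRNP proteins 10 and U2AF genes 3. The group was chosen on the signal of both E14.5 testis arrays, where it was low. That difference is therefore described below and carries no test.

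RNA came from mouse fetal gonads and was hybridised to Affymetrix MG_U74Av2 arrays, on which each transcript is read by a set of short probes. The 8 arrays were wild-type (WT) and Wnt4 knock-out (KO) female gonads at E12.5, WT and KO male gonads at E12.5, and the same 4 kinds of gonad at E14.5. There was 1 array for each combination and no replicate. The sources used here give no strain, no Wnt4 allele and no number of embryos behind an array. Gonads were taken whole, with all their cell types.

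Pre-mRNA splicing removes introns through the spliceosome, whose snRNPs carry a ring of Sm proteins and particle-specific proteins such as Snrpa1, Snrpb2 and Snrpc. U2AF binds the 3′ end of an intron, and the SF3A and SF3B complexes then hold the U2 snRNP at the branch point. SR proteins mostly favour the use of nearby exons and hnRNPs often repress it, so the balance between them is known to shape alternative splicing, and many of their own transcripts exist in several forms. Gonads and germ cells are known for extensive alternative splicing.

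Values are log2 signals centred on the median of each array, and signals under a floor of 6.99 were treated as the floor. A difference with an array at the floor is a bound. Of the 61 probe sets, 54 from 43 genes passed the filter of at least 2 arrays above the floor, and 46 of them were above it on all 8 arrays. Centring moved the arrays by -0.34 to 0.47, with the upper end on the E14.5 male arrays (0.43 in WT and 0.47 in KO). After centring, the spike-in mean was 9.98 and 10.09 on these arrays, against 8.83 to 9.78 on the other 6. These means include the shift of each array, which was -0.34 and -0.32 in the E12.5 testes. The gap in spike-in signal can therefore not be read apart from the centring. The gap between 3′ and 5′ actin probe sets was 1.37 (WT) and 1.09 (KO) in the E14.5 testes. It was 0.96 and 1.10 in the E12.5 testes and 0.48 to 0.77 in the ovaries. For Gapdh the same gap was -0.02 and -0.09 in the E14.5 testes, against -0.00 to 0.30 on the other 6 arrays. The part of these values in the differences below was not tested. Wnt4 was lower on the KO than on the WT array in each of the 4 pairs, least so in the E14.5 testes (9.42 in WT, 9.19 in KO), while the E12.5 ovaries were at 10.19 and 8.59, the E12.5 testes at 9.26 and 8.34 and the E14.5 ovaries at 9.45 and 8.32. The library labelled WT female at E14.5 gave the Y-linked Eif2s3y a level of 7.63, as on male arrays (6.91 to 8.13), against 4.86 to 6.04 on the other female arrays. Xist, the RNA of the inactive X chromosome, was at 7.10 there, nearer the other ovaries (7.69 to 8.13) than the testes (4.07 to 4.79). The ovary stage comparison and the knock-out counts are also given without it.

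On both arrays of the E14.5 testis, transcripts of this group were lower than in the E12.5 testis. Over the 54 probe sets the median of the E14.5 minus E12.5 difference, averaged over the WT and the KO pair, was -0.98, with quartiles of -1.41 and -0.33. Over all probe sets fitted the median was -0.00. At least 2-fold lower in both pairs were 20 of the 54, or 37.0%, where 11.8% of all probe sets were, and 2 were at least 2-fold higher (3.70%, against 5.83%). Signal was lower in both pairs for 43 probe sets and higher in both for 9. Over all 8441 probe sets with a value in both pairs, 3881 were lower in both and 3792 higher in both. Both E14.5 male arrays lay below all 6 other arrays for 39 of the 54, or 72.2% against 38.0% of all probe sets, and above all 6 for 7, with 36.9% of all probe sets there. These shares were in view when the group was proposed. Because whole gonads were measured, fewer cells of a type and less RNA per cell cannot be told apart.

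WT and KO testes gave nearly the same differences. The median gap between the pairs was 0.12, the widest was 0.82 (Hnrnpa1), and the 8 differences that are bounds are counted in this. The pairs had medians of -0.91 in WT and -0.93 in KO. Against the E14.5 female arrays in place of the E12.5 male ones, the median was -0.48, and -0.46 in the KO pair alone. With neither centring nor the floor the 54 probe sets had a median of -1.81 and all probe sets -0.81. With quantile normalization and no floor these medians were -0.87 and 0.08.

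**Figure D1:**
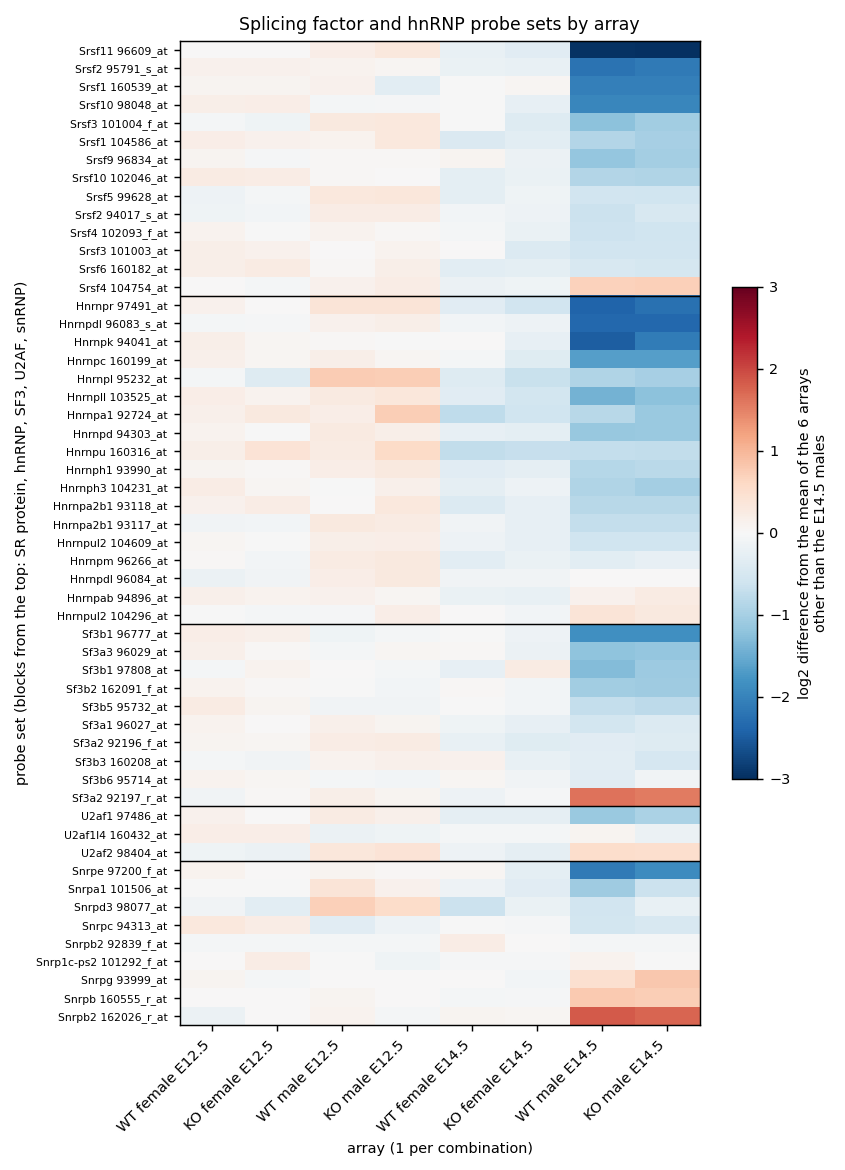
Log2 difference of each fitted probe set (rows, in blocks by gene family) from its mean over the 6 arrays that are not E14.5 testes, on each of the 8 arrays (columns), with values under the floor set to the floor. Blue is lower and red higher. The 2 right-hand columns, the E14.5 testes, are blue for most SR protein and hnRNP rows, while several U2AF and snRNP rows are pale or red, most of which turn lower without centring.

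The promoters of 6 of these genes are shown because they differ in their values and hold different short motifs. Srsf11, Hnrnpr and Hnrnpdl had the most negative differences (-3.25, -2.72 and -2.52), and Sf3b6, Snrpc and Snrpg were at -0.15, -0.26 and 0.63 (-0.15 for Snrpg without centring). The value for Hnrnpdl is from 96083_s_at, and its other fitted probe set, 96084_at, was at -0.24. Each sequence is the 250 bases before the annotated start, in the direction of the gene, from RefSeq on build GRCm38.p6. Capitals mark CCGGAAG (the core of ETS factor motifs), GGGCGG (the GC box) and CCAAT (the CCAAT box) or their reverse complements, and adjacent or overlapping matches run together.
Srsf11 promoter, chr3:158036607-158036856, minus strand: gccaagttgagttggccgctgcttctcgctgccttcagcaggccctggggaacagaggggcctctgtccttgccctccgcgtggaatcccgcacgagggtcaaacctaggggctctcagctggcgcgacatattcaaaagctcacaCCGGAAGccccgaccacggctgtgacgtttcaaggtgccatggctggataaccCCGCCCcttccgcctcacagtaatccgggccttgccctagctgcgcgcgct
Hnrnpr promoter, chr4:136310692-136310941, plus strand: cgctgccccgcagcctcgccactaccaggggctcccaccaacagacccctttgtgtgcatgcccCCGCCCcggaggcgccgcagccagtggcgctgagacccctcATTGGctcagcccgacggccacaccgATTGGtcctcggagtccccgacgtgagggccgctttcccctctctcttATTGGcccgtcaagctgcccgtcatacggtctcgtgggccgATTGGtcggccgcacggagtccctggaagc
Hnrnpdl promoter, chr5:100039223-100039472, minus strand: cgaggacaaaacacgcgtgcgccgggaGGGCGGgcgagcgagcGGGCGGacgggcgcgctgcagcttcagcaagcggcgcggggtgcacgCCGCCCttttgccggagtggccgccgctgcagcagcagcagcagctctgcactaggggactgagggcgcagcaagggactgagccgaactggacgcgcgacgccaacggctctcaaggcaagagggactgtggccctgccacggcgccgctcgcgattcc
Sf3b6 promoter, chr12:4817358-4817607, plus strand: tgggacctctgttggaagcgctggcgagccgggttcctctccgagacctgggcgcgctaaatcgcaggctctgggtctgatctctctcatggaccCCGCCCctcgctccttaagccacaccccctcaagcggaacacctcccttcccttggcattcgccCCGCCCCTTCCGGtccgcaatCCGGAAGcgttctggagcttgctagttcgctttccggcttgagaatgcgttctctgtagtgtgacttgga
Snrpc promoter, chr17:27839837-27840086, plus strand: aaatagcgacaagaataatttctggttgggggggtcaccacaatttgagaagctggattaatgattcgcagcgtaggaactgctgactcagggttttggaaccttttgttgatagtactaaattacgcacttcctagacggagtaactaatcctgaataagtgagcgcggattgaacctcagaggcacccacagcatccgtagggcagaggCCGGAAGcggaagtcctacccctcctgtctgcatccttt
Snrpg promoter, chr6:86371290-86371539, plus strand: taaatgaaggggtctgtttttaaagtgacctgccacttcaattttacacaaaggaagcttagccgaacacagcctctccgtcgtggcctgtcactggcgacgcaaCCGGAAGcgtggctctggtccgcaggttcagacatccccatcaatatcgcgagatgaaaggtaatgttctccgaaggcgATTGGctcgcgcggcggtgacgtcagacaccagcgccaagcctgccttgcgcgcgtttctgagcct

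A promoter was given for 38 of the 44 genes. The letters CCGGAAG, on either strand, were present in 13 of them, or 34.2%, against 7.05% of 27025 mouse promoters of the same length and 712 of the 5083 whose genes were fitted here. GGGCGG was in 68.4% (32.9% of all promoters, 59.4% of those fitted), CCAAT in 44.7% (34.5% and 36.2%) and TATAAA, the TATA box, in 10.5% (13.0% and 7.32%). Of the 21 genes whose brightest probe set was at least 2-fold lower in the E14.5 testis on average, 3 held CCGGAAG: Srsf11, Hnrnpd and Sf3a3. Of the other 16 fitted genes with a promoter, 10 held it: Sf3a1, Sf3a2, Sf3b2, Sf3b3, Sf3b6, Srsf4, Srsf5, Snrpb2, Snrpc and Snrpg. The same groups held GGGCGG in 16 of 21 and 9 of 16. These splits follow the measured differences and were not tested, and a match of letters is not a bound site. Sf3b2 lay just short of the 2-fold line (-0.999). Sf3a2 and Snrpb2 were placed by probe sets with the suffix _r_at, a kind described below.

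SR proteins, which bind exon enhancers through RNA recognition motifs and recruit the splicing machinery through arginine- and serine-rich tails, were low on the E14.5 testis arrays in 13 of 14 fitted probe sets, with a median of -1.02. At least 2-fold lower were 6 of them. Srsf11, an SR-related protein, was at 10.34 and 10.32 in WT and KO females at E12.5, 10.53 and 10.63 in males at E12.5, 10.10 and 9.99 in females at E14.5, and 7.36 and 7.31 in males at E14.5. Both E14.5 testes thus lay far below every other array, and the mean difference from the E12.5 testes was -3.25, or 9.49-fold, the lowest of the group. Srsf1, whose product was among the first SR proteins described and both promotes constitutive splicing and shifts splice site choice, was read at 8.72 to 9.17 on the 6 other arrays by 160539_at and at 5.99 and 6.20, under the floor, in the E14.5 testes. Its signal there was at least 3.88-fold lower than in the E12.5 testes.

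Srsf10, which acts as a splicing repressor when dephosphorylated, was at 8.95 and 8.99 in WT and KO males at E12.5 and at 7.05 and 7.07 at E14.5 by 98048_at, a difference of -1.91. Srsf3, a small SR protein that also takes part in mRNA export, differed by -1.44 by 101004_f_at. Srsf9 was at 11.27 and 11.28 at E12.5 and at 10.08 and 10.21 at E14.5, a difference of -1.13. In none of these did the E14.5 testes overlap with another array. Srsf5 and Srsf6 differed less, by -0.91 and -0.60.

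The hnRNPs, which coat nascent transcripts, had the most negative median of the 5 families, -1.11. Lower in both pairs were 16 of 18, and 9 were at least 2-fold lower. Hnrnpr, an RNA-binding protein close to Syncrip, was at 10.59 in both E12.5 testes, 9.61 to 10.31 in the 4 female gonads, and 7.80 (WT) and 7.95 (KO) in the E14.5 testes, a difference of -2.72 or 6.57-fold. Hnrnpk, which binds cytosine-rich RNA and DNA, was at 10.49 and 10.43 in WT and KO testes at E12.5 and at 7.98 and 8.35 at E14.5, a difference of -2.29. Hnrnpc, which binds uridine tracts and forms tetramers in the hnRNP core particle, was at 8.81 and 8.71 at E12.5 and under the floor at E14.5 (6.39 and 6.72), or at least 3.43-fold lower.

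Hnrnpl, which binds CA repeats, and its paralogue Hnrnpll, known for the splicing of the CD45 transcript in lymphocytes, differed by -1.70 and -1.62. Hnrnpd, a binder of AU-rich elements that mark unstable mRNAs, differed by -1.34, Hnrnph1, a binder of guanine runs, by -1.07, and Hnrnpa1, a repressor of exon inclusion, by -1.44, a bound. For each of these 5 genes both E14.5 testes lay below the 6 other arrays. Hnrnpm was at 11.18 and 11.21 in the E12.5 testes and at 10.61 and 10.68 in the E14.5 testes. The latter overlapped with the E14.5 ovaries (10.61 and 10.71).

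Hnrnpab, which binds RNA and single-stranded DNA, did not share the difference: by 94896_at it was at 9.98 and 9.91 in the E12.5 testes and at 9.98 and 10.09 in the E14.5 testes. Its mean difference of 0.10 turned to -0.68 without centring.

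Among the SF3 subunits, which belong to the U2 snRNP, the median was -0.62 and 9 of 10 probe sets were lower in both pairs. Sf3b1, the subunit that clasps the branch point, was lower by both of its probe sets: 96777_at was at 8.69 and 8.75 at E12.5 and under the floor in the E14.5 testes (6.68 and 6.58), and 97808_at was at 9.23 and 9.16 and then at 7.93 and 8.13. Sf3a3 was at 10.31 and 10.43 at E12.5 and at 9.18 and 9.21 at E14.5, a difference of -1.18. Sf3b2, Sf3b5 and Sf3b3 differed by -0.999, -0.65 and -0.54. Sf3b6, the small subunit near the branch point adenosine, differed by -0.15, which turned to 0.12 after quantile normalization.

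The U2AF genes differed from one another. U2af1, the small subunit that reads the AG at the end of the intron, was at 11.26 and 11.16 in the E12.5 testes and at 9.89 and 10.07 in the E14.5 testes, a difference of -1.23. U2af2, the large subunit that binds the polypyrimidine tract, was at 12.33 and 12.41 at E12.5 and at 12.54 and 12.51 at E14.5. The E14.5 testes were the highest arrays for U2af2 and the lowest for U2af1. The difference for U2af2, 0.15, became -0.63 without centring, and that for U2af1l4, a relative of U2af1, went from 0.10 to -0.68.

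The snRNP proteins had no common direction. Of 9 fitted probe sets, 4 were lower and 4 higher in both pairs, and 1 was under the floor on all 4 male arrays. Snrpe, a protein of the Sm ring, was at 11.07 to 11.47 on the 6 other arrays and at 9.24 (WT) and 9.48 (KO) in the E14.5 testes, a difference of -2.06 or 4.17-fold. Snrpg, which sits beside it in the same ring, was at 11.75 to 11.92 on the 6 other arrays and at 12.32 and 12.65 in the E14.5 testes. This difference of 0.63 became -0.15 without centring, so its direction rests on the scaling, but the gap between the Snrpe and Snrpg differences does not. The pseudogene Snrp1c-ps2 differed by 0.13.

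Snrpd3, also of the ring, was at 9.87 and 9.72 in the E12.5 testes and at 8.58 and 8.93 in the E14.5 testes, within the range of the E14.5 ovaries (8.52 and 8.95). Snrpa1, a U2 snRNP protein, differed by -1.12 with a pair gap (-1.46 in WT, -0.77 in KO). Snrpc, a U1 snRNP protein, differed by -0.26. Higher signals were read for Snrpb, another ring protein, by 160555_r_at (0.72, or -0.06 without centring) and for Snrpb2, a U2 snRNP protein, by 162026_r_at (1.78, and 0.998 without centring). Both of these carry the suffix _r_at, which marks probe sets for which some of the usual rules of probe choice were dropped.

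Genes with several probe sets allowed the difference to be read more than once on the same RNA. Of the 44 genes, 14 had several probe sets (31 in all). In 10 genes at least 2 of them were above the floor on the male E12.5 arrays. In 5 of these 10 the probe sets of the gene differed by 1 or more on the log2 scale in the E14.5 minus E12.5 difference. Among 849 other genes counted the same way, 32.6% did. In 2 of the 10 they had opposite signs of at least 0.5 each, against 10.4% of the other genes. In the stage comparison of the female arrays no gene of the 10 showed such a gap. There the widest range within a gene was 0.46 and the median range 0.25. The same count over other genes was not made for the female arrays. The female differences of the 54 probe sets were also smaller, from -1.01 to 0.18, against -3.25 to 1.78 in males. A gap of 1 was thus harder to reach there.

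**Figure D2:**
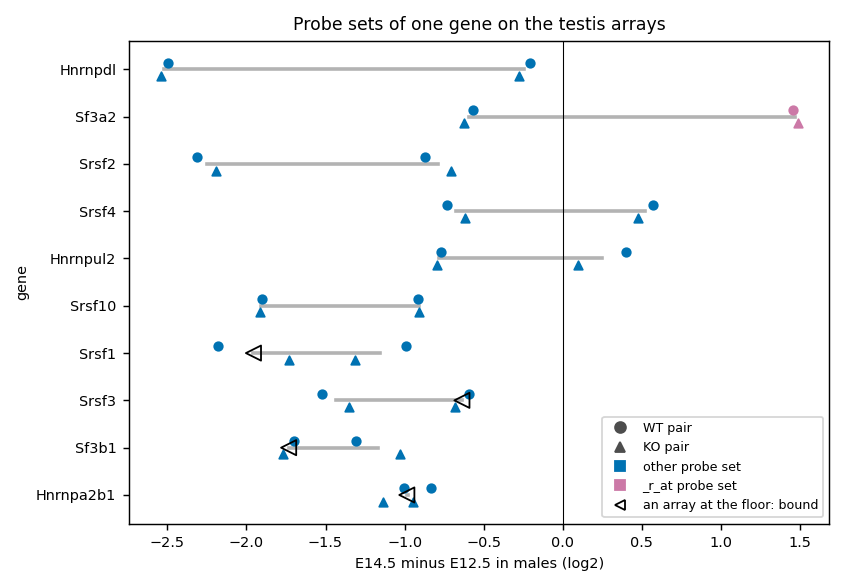
E14.5 minus E12.5 difference in males (log2, floored and median-centred) for the 10 genes with several probe sets, by WT pair (circles) and KO pair (triangles). Grey bars span the means of the probe sets, and open triangles mark bounds. Hnrnpdl spans 2.28 and Sf3a2 2.07, while those of Hnrnpa2b1 meet at -0.98 and -0.99 because the latter is a bound (-2.31 without the floor). The points right of 0, except the _r_at probe set of Sf3a2, turn lower without centring.

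Hnrnpdl, an hnRNP whose own transcript is alternatively spliced, had the widest gap. By 96083_s_at it was at 11.03, 11.06, 11.23, 11.28, 11.02 and 10.95 on the WT and KO arrays of E12.5 females, E12.5 males and E14.5 females, in that order, and at 8.73 and 8.74 in the E14.5 testes. By 96084_at the same arrays read 9.39, 9.45, 9.77, 9.85, 9.46 and 9.46, and the E14.5 testes 9.56 and 9.57. The first probe set placed the E14.5 testes 5.73-fold below the E12.5 testes and below every other array, and the second placed them within the range of the others, with differences of -2.52 and -0.24.

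Srsf2, an SR protein that marks nuclear speckles, was at 11.07 and 11.03 in the E12.5 testes and at 8.76 and 8.84 in the E14.5 testes by 95791_s_at, a difference of -2.25. By 94017_s_at it went from 12.80 in both to 11.93 and 12.09, a difference of -0.79. Both probe sets put the E14.5 testes below all other arrays, and they disagreed on how far. The suffix _s_at is given to probe sets whose probes are shared by several transcripts. Whether these transcripts all belong to 1 gene was not analysed here.

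Sf3a2, a subunit of SF3A, had opposite readings. By 92196_f_at it was at 11.55 and 11.56 in the E12.5 testes and at 10.98 and 10.94 in the E14.5 testes, a difference of -0.60. By 92197_r_at it was at 11.20 and 11.11 and then at 12.66 and 12.60, a difference of 1.47. The second probe set put the E14.5 testes above all 6 other arrays, also without centring (0.69). The suffix _f_at marks probe sets whose probes match a family of sequences.

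Srsf4, another SR protein, was at 8.30 and 8.22 and then at 7.57 and 7.60 by 102093_f_at, and at 8.94 and 9.04 and then at 9.50 and 9.51 by 104754_at, which are differences of -0.67 and 0.52. Without centring both were negative, at -1.45 and -0.26, and their gap stayed. Hnrnpul2, an hnRNP U-like protein, differed by -0.78 by 104609_at and by 0.25 by 104296_at, of which the latter also turned negative without centring (-0.53).

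The other 5 genes with several probe sets had lower signal in the E14.5 testis by each of them. Hnrnpa2b1, which binds pre-mRNA and sorts RNA for transport, differed by -0.98 by 93117_at and by -0.99 by 93118_at, a bound that became -2.31 without the floor. The pairs of values were -1.91 and -0.91 for Srsf10, -1.96 (a bound) and -1.15 for Srsf1, -1.44 and -0.64 (a bound) for Srsf3, and -1.73 (a bound) and -1.17 for Sf3b1. The brightest probe set of a gene had the less negative difference in 5 of the 10 genes. Without the floor, 7 of the 10 genes had a gap of 1 or more, against 37.7% of the other genes. Where in the transcripts the probe sets lie was not analysed here.

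The difference on the E14.5 testis arrays also went with the kind and the level of a probe set over the whole array. All 441 fitted _r_at probe sets had a median of 0.78, 30.8% of them were at least 2-fold higher, and 79.6% lay above the 6 other arrays on both E14.5 male arrays. The 6797 fitted _at probe sets had a median of -0.06. The 3 fitted _r_at probe sets of these genes, for Sf3a2, Snrpb and Snrpb2, were all higher, and without them the group had a median of -0.999, with 20 of 51 at least 2-fold lower and 0 at least 2-fold higher. The part of probe set kind in these values was not tested.

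Most of these genes gave strong signals. Among the probe sets of the highest level quartile the median was -0.33 over all probe sets, with 17.3% at least 2-fold lower, and -0.94 over the 32 of this group, with 14 at least 2-fold lower (43.8%). In the quartile below, the medians were -0.11 over all and -0.80 over the 8 of this group. In the one after that they were 0.15 over all and -1.15 over 11.

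**Figure D3:**
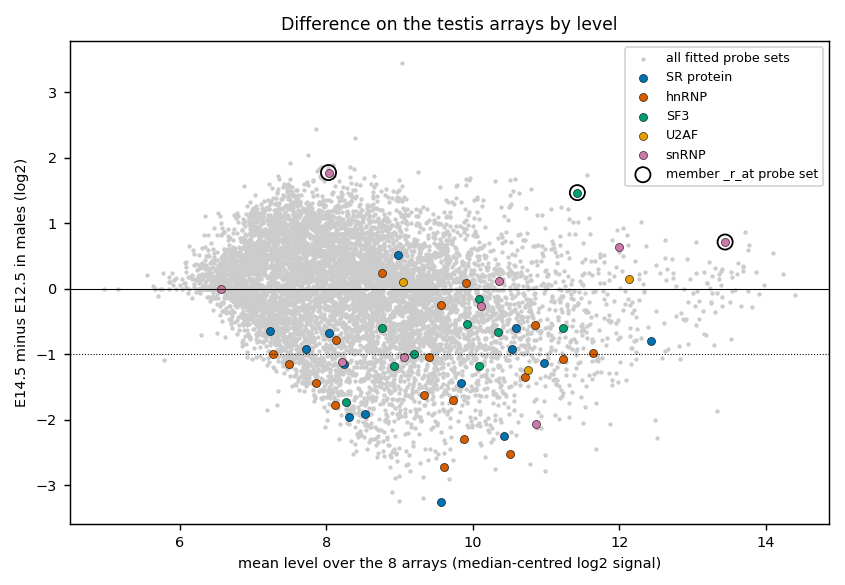
E14.5 minus E12.5 difference in males (log2, mean of WT and KO, floored and median-centred) against the mean level over the 8 arrays. Grey points are all fitted probe sets, coloured points the splicing factor and hnRNP probe sets by family, rings the 3 _r_at probe sets among them, and the dotted line a 2-fold lower signal. The coloured points have a median of -0.98 and spread from -3.25 to 1.78, and the ringed points are all above 0 (without centring the one for Snrpb lies at -0.06).

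Cell type markers also differed between the E12.5 and E14.5 testes. The mean level of the 5 Leydig cell markers was 7.09 and 7.44 at E12.5, with 3 and 4 of them above the floor, and 9.67 and 9.16 at E14.5, with 5 above it on both arrays. The mean of 7 germ cell markers was 8.46 and 8.42 and then 8.12 and 8.07, with 6 of them above the floor at E12.5 and 5 at E14.5, while Tdgf1 did not pass the filter. The means of 6 endothelial markers were 8.39 and 8.61 and then 7.65 and 7.76. Those of 4 erythroid markers were 11.95 and 11.86 and then 10.99 and 11.16, and those of 4 macrophage markers 7.15 and 7.25 and then 6.73 and 6.63. Sertoli cell markers were at 8.71 and 8.57 and then at 8.88 and 8.47, over 7 genes of which Fgf9 did not pass the filter. The part of these cell types in the differences was not tested.

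Other genes of splicing and RNA processing were taken from a list of 110, of which 83 genes with 101 probe sets were fitted. Their median difference in the testis was -0.42, and 20 of 101 were at least 2-fold lower in both pairs (19.8%, with 11.8% of all probe sets). The lowest were Qk (-2.60), which encodes the RNA-binding protein quaking, the polypyrimidine tract binding paralogues Ptbp2 and Ptbp3 (-2.17 and -2.11, both bounds) and the polyadenylation factor gene Cstf2 (-2.11). The highest were Rbfox2, a splicing regulator read by an _r_at probe set (1.23), the tri-snRNP protein gene Prpf31 (0.997), the hnRNP-like Raly (0.88) and the kinase gene Clk3 (0.80). Translation initiation factors had a median of -0.42, with 15 of 44 at least 2-fold lower (34.1%), proteasome genes -0.33 with 10 of 40, and cytosolic ribosomal protein genes 0.23 with 0 of 38. A low signal was therefore also read for other broadly expressed genes, and the gap between the groups was not tested.

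The change from E12.5 to E14.5 in the ovary does not rest on the testis arrays in its means, and was tested. Of the 54 probe sets, 18 fell and 0 rose (33.3%, where 23.1% of all 8452 probe sets passed, 14.6% by falling and 8.41% by rising) by limma's test at an adjusted p of 0.05, with Benjamini-Hochberg adjustment over all probe sets. The median difference was -0.23, with -0.02 over all probe sets, and 50 of 54 differences were negative, against 4454 of all 8452. Of the 18 that fell, 10 were hnRNPs, the largest family with 18 fitted probe sets. SR proteins, with 14 fitted, gave 5, and Sf3a2, Sf3b1 and Snrpc were the others. The adjusted p of the 18 lay between 0.0107 and 0.0492.

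Hnrnpu, which binds RNA and chromatin and was first described as a scaffold attachment factor, was at 7.90 and 8.15 in the WT and KO ovaries at E12.5 and at 6.82 and 7.05 at E14.5. It fell by 1.01 ± 0.10 (SE of the fit, limma adjusted p = 0.0107), a value that depends on the floor. Hnrnpa1 was at 8.25 and 8.39 and then at 7.34 and 7.50, and fell by 0.90 ± 0.20 (limma adjusted p = 0.0366). Both genes had E14.5 ovaries clearly below the E12.5 ovaries.

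Hnrnpll went from 9.86 and 9.77 to 9.33 and 9.12, a fall of 0.59 ± 0.07. Hnrnpr went from 10.31 and 10.19 to 9.86 and 9.61, a fall of 0.52 ± 0.07. Of the SR proteins, Srsf6, known as a regulator of tau exon choice, went from 10.90 and 10.96 to 10.40 and 10.42, a fall of 0.52 ± 0.06. In all 3 the E14.5 ovaries lay below both E12.5 ovaries. Srsf1 fell by 0.53 ± 0.11 by 104586_at and was at -0.06 by 160539_at, which did not pass.

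Smaller falls that passed were those of Hnrnpa2b1 by 93118_at (0.50), Srsf10 by 102046_at (0.47), Hnrnph1 (0.38), Sf3a2 by 92196_f_at (0.36), Hnrnpab (0.34) and Srsf2 by 95791_s_at (0.33). Other probe sets of these genes did not pass: Hnrnpa2b1 by 93117_at (-0.08), Srsf10 by 98048_at (-0.31), Sf3a2 by 92197_r_at (-0.05) and Srsf2 by 94017_s_at (-0.01). Nor did Sf3b1 by 97808_at (-0.01), while its 96777_at passed. The list of other splicing genes gave 33 falls and 5 rises among 101 probe sets by the same test (37.6% passing, with 23.1% of all probe sets). Leaving out the WT female E14.5 array, so that the KO pair alone remained, gave a median of -0.25 over the 54 probe sets with 49 of them negative.

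The calls depended on the scaling and on single arrays. After quantile normalization 11 of the 54 passed (20.4%), with 20.5% of all probe sets, so that the group's share lay at the background. Without centring 48 of 55 passed (87.3%, with 61.7% of all probe sets), and with no filter on low values 0 of 61, with 0.322% of all 12422 probe sets. Without any 1 of the 8 arrays, or without both E14.5 testis arrays, 0 of 54 and 0 of 8452 passed limma's adjusted threshold, with 17 to 23 of the 54 at an unadjusted p under 0.05 (31.5% to 42.6%, with 22.9% to 32.4% of all probe sets), and 30 on all arrays (55.6%, with 39.8%). After centring, the spike-in mean was 8.85 and 8.83 in the E12.5 ovaries and 8.88 and 9.05 at E14.5. The gap between 3′ and 5′ actin probe sets was 0.48 and 0.49 and then 0.77 and 0.55. The mean of 5 Leydig markers was 6.73 and 7.35, with 1 and 3 above the floor, and then 8.64 and 7.53. The 8.64 is from the WT female E14.5 array, where Eif2s3y was at a male level. Other lists moved as well: 3 meiosis markers from 4.46 and 4.39 to 6.10 and 6.40, with at most 2 above the floor. The mean of 4 neural crest and nerve markers went from 7.25 and 7.97 to 6.96 and 6.98. The part of these values in the falls was not tested.

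**Figure D4:**
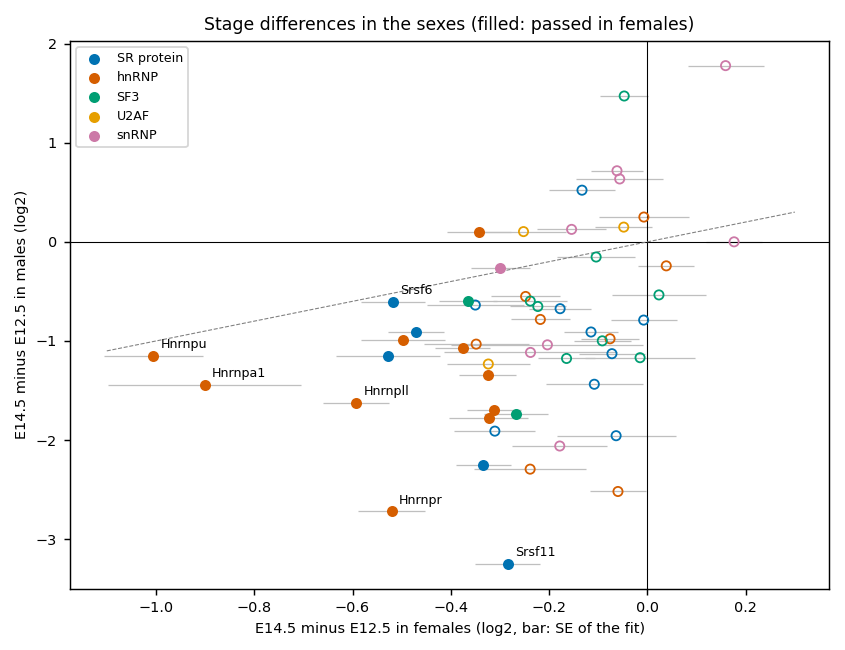
E14.5 minus E12.5 difference (log2, floored and median-centred) in males, as the mean of the pairs, against females, with the SE of the limma fit as bars, for the 54 fitted probe sets by family. Filled points passed in females (18, all lower) and open points did not. The dashed line marks equal differences, and 43 probe sets lie below it. Points above 0 in males other than the _r_at probe sets of Sf3a2 and Snrpb2 turn lower there without centring.

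Set beside the ovary, the testis differences were wider. They spanned -3.25 to 1.78, against -1.01 to 0.18 in the ovary, and 43 of 54 were lower in the testis. All 4 pairs were negative for 36 probe sets. The order of genes was not shared throughout: Hnrnpu differed by -1.01 in the ovary and by -1.15, a bound, in the testis, whereas Srsf11 differed by -0.28 and -3.25. The difference between the sexes was not tested, since the group was chosen for the testis values.

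At E12.5, when the testis and the ovary have just taken separate courses, male and female gonads differed in 11 of the 54 probe sets by limma's test (20.4%, with 16.3% of all probe sets passing). Signal was higher in males for 8 (14.8%, with 7.79% of all probe sets) and lower for 3 (5.56%, with 8.51%). This comparison shares the E12.5 female arrays with the stage comparison above. The adjusted p of the 11 lay between 0.0185 and 0.0499. The median over the 54 was 0.05.

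Hnrnpl was at 9.92 and 9.60 in WT and KO females and at 10.73 and 10.70 in males, a difference, male minus female, of 0.96 ± 0.05 (SE of the fit, limma adjusted p = 0.0185). At E14.5 its males, at 9.06 and 8.97, lay below the females, at 9.58 and 9.31. Snrpd3 was at 9.04 and 8.84 in females and at 9.87 and 9.72 in males, a difference of 0.85 ± 0.20 (limma adjusted p = 0.0499). U2af2 was at 11.86 and 11.82 and at 12.33 and 12.41, a difference of 0.53 ± 0.06. In these 3 genes both male arrays lay above both female ones.

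Also higher in E12.5 males were Srsf5 (0.43 ± 0.06), Hnrnpdl by 96084_at (0.39 ± 0.06), Hnrnpa2b1 by 93117_at (0.36 ± 0.06), Srsf2 by 94017_s_at (0.34 ± 0.07) and Hnrnpr (0.33 ± 0.07). The other fitted probe sets of these genes did not pass: Hnrnpdl by 96083_s_at (0.21), Hnrnpa2b1 by 93118_at (-0.01) and Srsf2 by 95791_s_at (-0.04). Lower in males were Snrpc, at 10.56 and 10.46 in females and 9.90 and 10.08 in males (-0.52 ± 0.06, limma adjusted p = 0.0221), Sf3b1 by 96777_at (-0.28 ± 0.07) and Sf3b5 (-0.27 ± 0.06). Sf3b1 by its other probe set, 97808_at, was at 9.15 and 9.32 in females and 9.23 and 9.16 in males, which overlap. The list of other splicing genes gave 17 of 101, 10 higher and 7 lower in males. This share of 16.8% lay at the background of 16.3% of all probe sets.

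**Figure D5:**
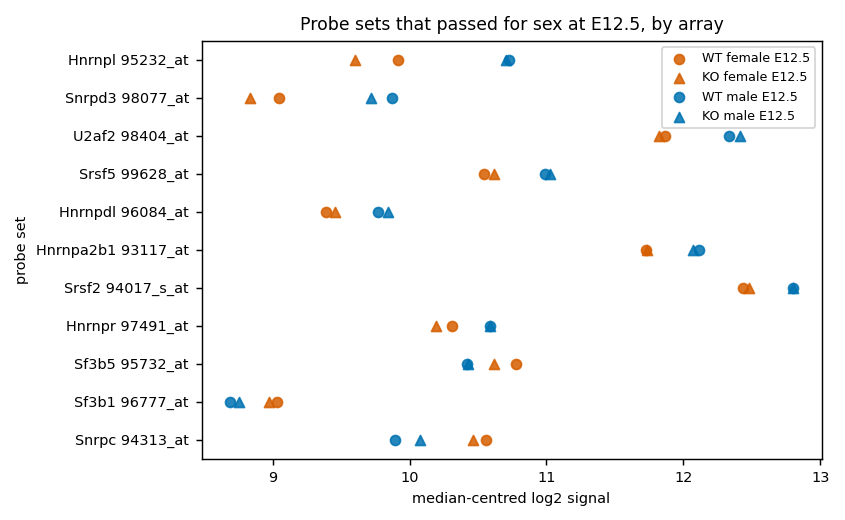
Median-centred log2 signal of the 11 probe sets that passed limma's test for sex at E12.5, on the WT (circles) and KO (triangles) arrays of females (orange) and males (blue). The male and female arrays do not overlap in any row; Hnrnpl has the widest separation, and the lowest 3 rows are those with lower signal in males.

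The direction depended in part on the scaling. Without centring 25 of 55 passed, 23 higher and 2 lower in males (45.5%, with 34.4% of all probe sets). After quantile normalization 7 passed, 4 higher and 3 lower (13.0%, with 13.7% of all), so that the group's share lay at the background. With no filter on low values only Hnrnpl passed. Without any 1 array, or without both E14.5 testis arrays, 0 of 54 and 0 of 8452 passed by limma, with 11 to 19 of the 54 at an unadjusted p under 0.05 (19.0% to 30.7% of all probe sets), and 25 on all arrays (46.3%, with 36.5% of all). The group's share was the lower one without the WT male E12.5 array (20.4%, with 28.8% of all). In E12.5 males the spike-in probe sets averaged 9.48 and 9.78 after centring, with 8.85 and 8.83 for the ovaries. The actin gap was 0.96 and 1.10, with 0.48 and 0.49 for the ovaries. Erythroid markers, 4 of 4 above the floor, averaged 11.95 and 11.86 in those testes, with 11.30 and 11.19 for the ovaries. Sertoli cell markers, 7 genes of which 5 were above the floor in both testes, averaged 8.71 and 8.57, with 7.40 and 7.48 for the ovaries. The pregranulosa markers, also 7 genes, averaged 8.04 and 7.56, with 9.01 and 7.89 for the ovaries. This list includes Wnt4, the gene knocked out. Above the floor were 6 and 3 of its genes in the testes and 6 in each ovary, and Bmp2 was above it on no array. The part of these technical values and cell types in the sex differences was not tested.

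The Wnt4 knock-out was compared with wild type to see whether these genes depend on Wnt4, a secreted signal of the fetal ovary. By limma 0 of the 54 passed in females, in males, over both sexes or for the difference between the sexes, where 0.0% of all probe sets passed as well. At an unadjusted p under 0.05 there were 5, 0, 1 and 6 of the 54, against 962, 405, 487 and 971 of 8452. Without the WT female E14.5 array there were 1, 0, 1 and 1, against 350, 200, 291 and 384 of 8452, and 0 passed by limma. The lowest adjusted p of the 54 were 0.433, 0.794, 0.813 and 0.434. Median differences were -0.06 in females, 0.04 in males and -0.01 over both sexes.

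In females the difference of Hnrnpl, KO minus WT, was -0.32 at E12.5 and -0.27 at E14.5, or -0.30 ± 0.05 (limma adjusted p = 0.433). It was negative also in both male pairs (-0.03 and -0.09), and over both sexes it was -0.18 ± 0.04 (limma adjusted p = 0.813). Sf3b1 by 97808_at was at 0.16 and 0.48 in the female pairs, while by 96777_at it was at -0.05 and -0.14, the opposite direction. Snrpe was at -0.10 and -0.34 there and Srsf3 by 101004_f_at at -0.06 and -0.38. In these 3 the pairs agreed in sign and differed in size.

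In males the highest differences of one sign in both pairs were those of Snrpg (0.17 ± 0.09), Hnrnpll (0.13 ± 0.07) and Snrpc (0.12 ± 0.06), and the lowest that of Snrpb2 by 162026_r_at (-0.13 ± 0.08). Over both sexes, besides Hnrnpl, Sf3b2 had one sign in all 4 pairs (-0.07 ± 0.04). The difference of the KO effect between males and females was 0.34 ± 0.16 for Hnrnpk, 0.34 ± 0.14 for Srsf3 and 0.33 ± 0.14 for Snrpe, with limma adjusted p of 0.453, 0.438 and 0.438. With 1 array per combination, KO differences of this size could not be separated from the spread between the stages.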

How the data were processed

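Total RNA of fetal gonads was read on 8 arrays. The authors deposited log2 expression values of 12488 probe sets, made with MAS5 per the submitters' processing notes. Version, scaling target and background handling were not given in the sources used here. Values span 2.36 to 15.0, from which the log2 unit was taken. In 1 column 14 cells held date serial numbers and were set to missing (0 of them in the genes described). Arrays were shifted to a common median, values under the 40th percentile (6.99) were set to it, and 8452 probe sets above it on at least 2 arrays were fitted, without 66 control probe sets. Probe sets were named from GEO's platform annotation, in which 10833 have 1 gene, 396 several and 1193 none, and RefSeq holds all 44 genes described.

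The test was limma (version 3.58.1, R 4.3.3), with an intensity trend, sex by genotype and sex by stage terms and 2 residual degrees of freedom, two-sided, with p-values adjusted over all fitted probe sets (Benjamini-Hochberg). The residual is how far the KO difference of a sex varies from stage to stage, so p-values measure the spread between these arrays and not between litters. The script was tested on simulated data. With single arrays, their number limits all precision. The E14.5 male difference was described with no test. The genes and lists were chosen with earlier results of these data known. Genes named were those whose probe sets differed 2-fold in that difference, the lowest 4 and highest 3 of each family, those passing a test (the 12 largest in a direction), where none passed the 4 highest and lowest with pairs of one sign, and the lowest 4 and highest 4 of the other splicing genes, each by its brightest probe set. Further genes were added after their values were seen. Alternatives were no centring, quantile normalization, other floors and filters, no trend, another model and leaving out arrays.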

Additional observations from a re-analysis of the deposited data

Results flagged for a closer look

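Several probe sets moved in opposite directions in the sexes, in both pairs of each sex. For the stage difference, E14.5 minus E12.5, the male value exceeded the female one by 1.52 for Sf3a2 (92197_r_at), 0.78 for Snrpb (160555_r_at) and 0.69 for Snrpg. The excess was 0.65 for Srsf4 (104754_at), 0.44 for Hnrnpab, 0.28 for Snrp1c-ps2 and 0.20 for U2af2. In all of these the signal at E14.5 was higher in males and lower in females. Hnrnpdl by 96084_at went the other way, with a gap of -0.28. These gaps were not tested, because the genes were chosen for the male values, and without centring the male differences other than that of Sf3a2 are negative.

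For the knock-out difference, KO minus WT, the male minus female gap was 0.34 for Srsf3 (101004_f_at), 0.28 for Hnrnpll and 0.27 for Snrpg. It was 0.25 for Srsf9, 0.24 for Sf3a3, 0.17 for Snrpc, 0.09 for Hnrnpul2 (104609_at) and -0.20 for Sf3a2 (92197_r_at). The share of all probe sets with opposite signs was not counted. In the limma test of the KO-by-sex difference none of the 54 probe sets passed, and 6 had an unadjusted p under 0.05 (1 without the WT female E14.5 array).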

How the results depend on the processing

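The stage count in females, 18 of 54, was 48 on values as deposited, 11 after quantile normalization, 0 of 61 with no filter on low values (40 of 12422 probe sets passed then), 0 without the 2 E14.5 male arrays and between 0 and 0 with any 1 array left out, where 1 residual degree of freedom remained. The sex count at E12.5, 11, was 25, 7, 1, 0 and between 0 and 0 under the same settings. Under the other settings these counts were 18 to 21 and 10 to 15. The 4 knock-out counts were 0 under each setting run. Over the alternatives on all arrays, the single genes named still passed in 109 of 139 cases for stage and 67 of 87 for sex, and 0 reversed. The median difference of the E14.5 testis arrays, -0.98, was -1.57 as deposited and -0.78 after quantile normalization (floor kept, over the probe sets fitted there), -0.999 with a floor at the 20th percentile, -1.04 with no floor, -0.91 above the floor on all 8 arrays, -0.79 with no filter, -0.91 in the WT and -0.93 in the KO pair, -0.48 against E14.5 females, -1.03 with 1 probe set per gene and -0.999 without _r_at probe sets, a setting chosen after seeing the data. The count of genes whose probe sets disagreed, 5, was 8 with the lower floor, 9 at a range of 0.5 and 2 at a range of 2, and 4 to 7 otherwise. The cause of these changes was not tested. No paired analysis was possible because no replicate number pairs arrays (1 array per combination), while the fit itself compares stages and sexes within genotype. Depth is not defined for arrays, and probe sets near the floor give only bounds.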

Other observations

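The 7 probe sets that did not pass the filter had levels between 2.78 and 7.10 over all arrays and enter no comparison. They read Srsf1 (101022_at and 160141_r_at), Hnrnpab (95911_at), Hnrnpdl (161372_f_at), Hnrnpu (93761_at), Snrpb (161335_r_at) and the X-linked Hnrnph2 (94832_at), which rose above the floor on 1 array. Without a floor their E14.5 minus E12.5 differences in males ran from -2.24 to 1.05. For Srsf1, 101022_at was at 4.77 to 4.98 on the 6 other arrays and at 5.89 and 5.84 in the E14.5 testes, while 160141_r_at was at 5.73 to 6.12 and then at 3.44 and 3.68. These directions are opposite, and signals this low have no settled order.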
